A study of Mus musculus with 41 samples.

Results

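Of the 44683 regions of histone H3 monomethylated at lysine 4 (H3K4me1) called on chromosomes 1 to 19 in LSD1n WT neurons after 1 h in KCl, 7860 were called only with KCl and in both genotypes. Each of these regions overlapped an H3K4me1 region of the LSD1n KO list at 1 h by at least 1 bp and overlapped no H3K4me1 region of either genotype at 0 h. They are called gained regions here and made up 17.6% of the WT 1 h list. They were selected on the 4 H3K4me1 lists, so their H3K4me1 calls only describe them, and the other marks and proteins were measured apart from that selection.

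The lists come from chromatin immunoprecipitation followed by sequencing in mouse primary cortical neurons cultured for 10 days and then exposed for 1 h or 0 h to a KCl bath at 55 mM. H3K4me1, H3K36me3, H4K20me1 and RNA polymerase II (Pol II) were mapped in LSD1n KO and LSD1n WT neurons at both times, and H3K4me2 in LSD1n WT neurons at both times. LSD1 antibody was used in wild type neurons at both times, in LSD1n KO neurons without a labelled KCl time and in LSD1n WT neurons at 0 h. Flag antibody was used at both times in neurons labelled R26/LSD1n and R26/LSD1c, where the labels name the target as Flag-LSD1n and Flag-LSD1c. The age, sex and number of the animals are not given in the sources used here. Every group has 1 list except H4K20me1 in WT at 1 h, which has 2, so differences between lists carry no replicate error and were not tested. Bracketed ranges below are exact 95% binomial intervals that cover counting error only.

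H3K4me1 marks enhancers, both poised and active, and the flanks of promoters, while H3K4me2 lies nearer to active promoters and strong enhancers. LSD1 is a demethylase that removes methyl groups from H3K4me1 and H3K4me2, and LSD1n is its neuronal splice form, with H4K20me1 among its reported substrates. KCl depolarizes neurons, lets calcium in and switches on activity-dependent genes, many of them through enhancers. H3K36me3 and H4K20me1 are found mainly over transcribed gene bodies.

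The H3K4me1 libraries differed in depth, with 34859557 tags in KO at 1 h, 23440511 in WT at 1 h, 22970480 in KO at 0 h and 23973912 in WT at 0 h. Their lists held 62945, 44793, 33244 and 37204 regions in the same order. The caller's tag threshold was 26 tags in KO at 1 h and 21 tags in each of the others, which is 7.46 per 10000000 tags in KO at 1 h and 8.76 to 9.14 in the others. The KO 1 h library is thus the deepest of the 4 and its list the longest. With each 1 h list cut to as many of its widest regions as its own 0 h list holds, 3578 gained regions were found in place of 7860. All 4 libraries share 1 title prefix. The lists do not measure the LSD1n transcript, so the knockout label was not checked, and no mm9 annotation was used here, so neither the neuronal identity nor nearby genes could be read from the lists.

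The WT 1 h list sorts into classes by what each region overlaps in the other 3 H3K4me1 lists. The largest class, 13836 regions (31.0%), lay in all 4 lists and is called kept here. Regions found in the WT 1 h list alone came next, with 8866 (19.8%), ahead of the 7860 gained in both genotypes. A further 6148 regions (13.8%) were missing only from the KO 0 h list and 4342 (9.72%) only from the WT 0 h list. In the opposite direction, 741 regions of the WT 0 h list overlapped a KO 0 h region and no 1 h region of either genotype. Starting from the KO 1 h list with the mirrored rule gave 6881 regions, and 22071 regions were found in the KO 1 h list alone. Gained regions made up 15.9% (14.3 to 17.6) of the WT 1 h list on chromosome 15 and 19.9% (17.8 to 22.1) on chromosome 16, the lowest and the highest share of the 19 chromosomes.

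Gained regions were narrow. Their median width was 631 bp with a maximum of 4249 bp, against a median of 1497 bp in kept regions. At 501 bp, the smallest width that the caller's stitching gives, stood 3583 gained regions (45.6%), against 6.96% of kept regions and 68.1% of those found in the WT 1 h list alone. Widths of 1 kb or more were reached by 1203 gained regions (15.3%), against 71.5% of kept regions, and widths of 2 kb or more by 111 (1.41%). Together the gained regions covered 5.82 Mb and the kept regions 25.5 Mb. Regions lost in both genotypes were narrow too, with a median width of 501 bp. These widths come from the H3K4me1 lists that defined the classes. Asking for no overlap at the other time favours narrow regions, so the widths only describe the classes.

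The overlap with the KO 1 h list was often partial. The median gained region had 70.6% of its length inside KO 1 h regions, 2023 (25.7%) were covered in full and 5278 (67.2%) over at least 50%. The KO region was the wider one at 5078 gained regions (64.6%), the narrower one at 1851 and of equal width at 931, with a median KO width of 853 bp. At 1848 gained regions (23.5%) the overlapping KO region itself reached an H3K4me1 region of 0 h, so only 6012 (76.5%) stood apart from 0 h regions in both 1 h lists. The regions that stood apart and the 1848 others differed little in the shares of H3K4me2, Pol II and wild type LSD1. H3K4me2 at 1 h, for example, was met by 18.7% (17.7 to 19.7) of the 6012 regions that stood apart and by 19.3% (17.5 to 21.2) of the 1848 others. H4K20me1 in KO at 0 h was met by 21.6% (20.5 to 22.6) of the 6012 and by 31.1% (29.0 to 33.2) of the 1848. H3K36me3 in WT at 1 h was met by 1.95% of the 6012, against 2.44% of all gained regions. That total includes the 6012, so the share among the 1848 others was above 2.44%.

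Most gained regions lay within 5 kb of H3K4me1 that was already called at 0 h. The median gap to the nearest 0 h region of either genotype was 2866.5 bp. A 0 h region lay within 1 kb of 2436 gained regions (31.0%), within 5 kb of 4610 (58.7%) and within 50 kb of 7294 (92.8%). Between a pair of 0 h regions that each lay within 5 kb stood 1111 (14.1%). The caller joined peaks up to 1250 bp apart, and 2732 gained regions (34.8%) had a 0 h region within that distance. With a clear distance of 5 kb asked for, 3250 regions remained. The gaps come from the 0 h lists that the rule used, and only describe the gained regions. Gaps of the other classes are not given here, so nearness to 0 h regions is not shown to be particular to gained regions.

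The rule has a sharp edge. Just inside it, 313 gained regions had a gap of under 50 bp to a 0 h region, 13 of them with a gap of 0 bp, such as chr1:92280971-92281799, chr2:90385423-90386851 and chr4:130715809-130716309 (mm9, positions from 1). Just outside it, 377 WT 1 h regions with a KO 1 h partner overlapped 0 h regions by under 50 bp in all, among them chr5:147865384-147866022, chr6:28164551-28165051 and chr9:37295726-37296226 with 1 bp each. Both numbers are small beside 7860.

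Few gained regions stood close to each other. Joined within 10 kb, 1229 gained regions (15.6%) formed 585 clusters of at least 2, and 50 clusters held at least 3. The cluster with the most members spanned chr6:94616451-94636170, where 5 gained regions of 4879 bp in all lay among 2 WT and 1 KO regions of 0 h. At chr9:54546465-54553154, 4 gained regions covered 2816 bp, with 2 KO regions at 1 h and no 0 h region of either genotype.

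Over all widths, the gained regions carried fewer peaks of every other target than kept regions did. H3K4me2 in WT at 1 h overlapped 18.8% of gained and 38.2% of kept regions, against 23.9% of the whole WT 1 h list of H3K4me1. H3K4me2 at 0 h overlapped 22.1% of gained regions, 44.0% of kept regions and 28.2% of the whole list. Pol II in the lists labelled KO overlapped 7.12% of gained and 16.3% of kept regions at 1 h, with 9.83% of the whole list, and 5.92% and 12% at 0 h, with 7.64% of the whole list. In the Pol II lists labelled WT the shares were 6.01% of gained, 15.2% of kept and 8.94% of all regions at 1 h, and 5.34%, 10.9% and 6.97% at 0 h. So gained regions were below the whole list for H3K4me2 and for Pol II in each of these 6 lists. They were above the regions found in the WT 1 h list alone in each of the 6. In that class H3K4me2 at 1 h overlapped 8.94%, Pol II labelled KO at 1 h 4.49% and Pol II labelled WT at 1 h 3.99%.

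**Figure D1:**
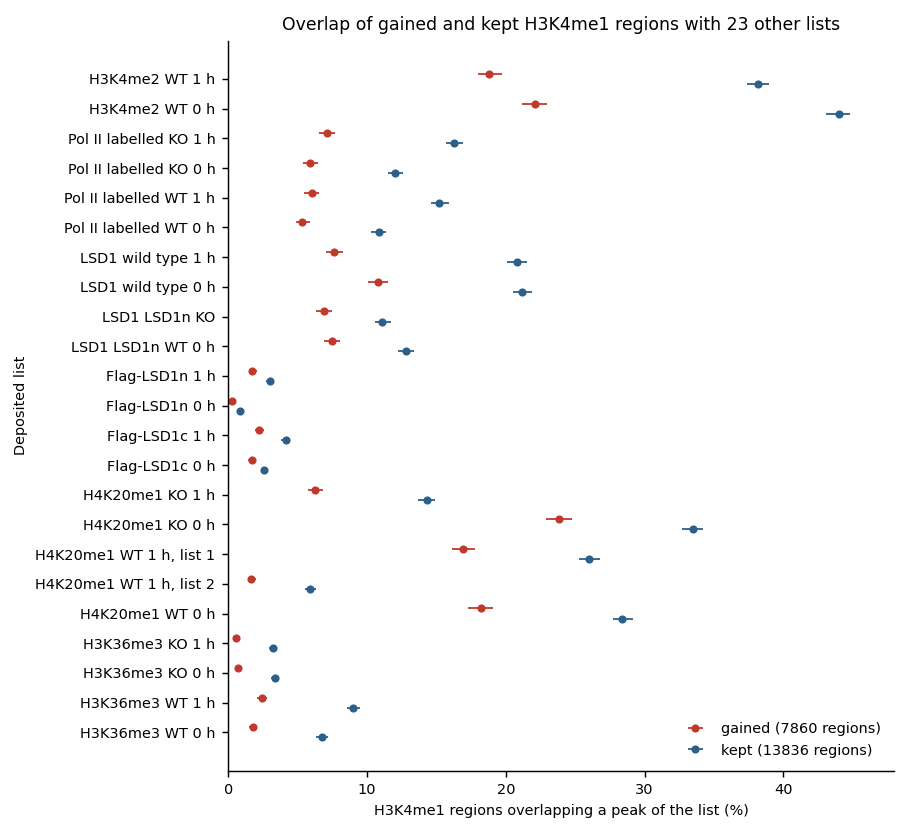
Share of gained (red, 7860) and kept (blue, 13836) H3K4me1 regions that overlap a peak of each of 23 other lists, in percent on the horizontal axis, with exact 95% binomial intervals as bars. The gained share lies left of the kept share for every list, as at H3K4me2 in WT at 1 h with 18.8% against 38.2%.

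LSD1 itself was also less frequent in gained regions than in kept regions or the whole list. In wild type neurons LSD1 sites at 1 h lay in 7.63% of gained regions, 20.8% of kept regions and 11.4% of the whole list, but in 3.95% of regions found in the WT 1 h list alone. At 0 h they lay in 10.8% of gained, 21.2% of kept and 13.6% of all regions. The LSD1 list of LSD1n KO neurons met 6.90% of gained, 11.1% of kept and 7.89% of all regions, and that of LSD1n WT neurons at 0 h met 7.48%, 12.8% and 8.67%. Flag-LSD1n sites at 1 h lay in 137 gained regions (1.74%), in 2.98% of kept and in 2.06% of all regions, and at 0 h in 21 gained regions (0.267%), 0.846% of kept and 0.486% of all regions. Flag-LSD1c sites lay in 2.21% of gained, 4.13% of kept and 2.66% of all regions at 1 h, and in 1.69%, 2.59% and 1.78% at 0 h, the list in which gained regions came closest to the whole.

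Over all widths the gene body marks followed the same order. H4K20me1 in KO overlapped 6.26% of gained, 14.3% of kept and 8.75% of all regions at 1 h, and 23.8%, 33.5% and 26.1% at 0 h. H4K20me1 in WT at 0 h overlapped 18.2% of gained, 28.4% of kept and 20.7% of all regions. The 2 WT lists at 1 h stood far apart, with 16.9% and 1.67% of gained regions, 26% and 5.89% of kept regions, and 19.5% and 2.99% of all regions. H3K36me3 in KO overlapped 0.547% of gained, 3.22% of kept and 1.38% of all regions at 1 h, and 0.712%, 3.38% and 1.54% at 0 h. In WT it overlapped 2.44% of gained, 9.01% of kept and 4.62% of all regions at 1 h, and 1.76%, 6.76% and 3.41% at 0 h.

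Many gained regions carried H3K4me1 alone. None of the 23 other lists touched 3628 gained regions, or 46.2% (45.1 to 47.3), against 21.5% (20.8 to 22.2) of kept regions and 40.3% of the whole WT 1 h list. The share was 62.6% (61.6 to 63.6) among regions found in the WT 1 h list alone and 55.1% (51.4 to 58.7) among regions lost in both genotypes. Without any H3K4me2, Pol II or LSD1 list were 5033 gained regions (64.0%), against 33.2% of kept regions. That share was 55.8% in the whole WT 1 h list and 80.4% among regions found in the WT 1 h list alone. The widest gained regions touched by no other list were chr17:25800175-25803327 (3153 bp), chr13:78322392-78325224 (2833 bp) and chr2:180241656-180244474 (2819 bp). At the other end, 5 gained and 83 kept regions overlapped at least 1 list of each of the 8 targets.

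Wider regions met H3K4me2 and Pol II at 1 h more often, in both classes. H3K4me2 at 1 h met 13.1% of gained regions of 501 bp, 21.2% of those of 502 to 999 bp, 28.3% of those of 1000 to 1999 bp and 41.4% of those of 2000 bp or more. In kept regions the shares in the same bands were 18.9%, 28.3%, 34.7% and 53.1%. For Pol II labelled WT at 1 h they were 4.27%, 5.95%, 9.71% and 27% in gained regions and 5.40%, 7.87%, 11.8% and 26.3% in kept regions. The difference between gained and kept regions at 1 h was -19.4 percentage points for H3K4me2 (-20.6 to -18.2) and -9.24 for Pol II (-10.0 to -8.43) over all widths. Among regions of 502 to 999 bp, a band chosen after the values were seen, it was -7.06 (-9.25 to -4.86) and -1.91 (-3.22 to -0.612). With at least 50% of the region to be covered, both in the rule and by H3K4me2, the difference for H3K4me2 was -1.43 (-2.58 to -0.311), and in 1 kb windows at the centres the difference for Pol II was -3.33 (-4.13 to -2.53).

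**Figure D2:**
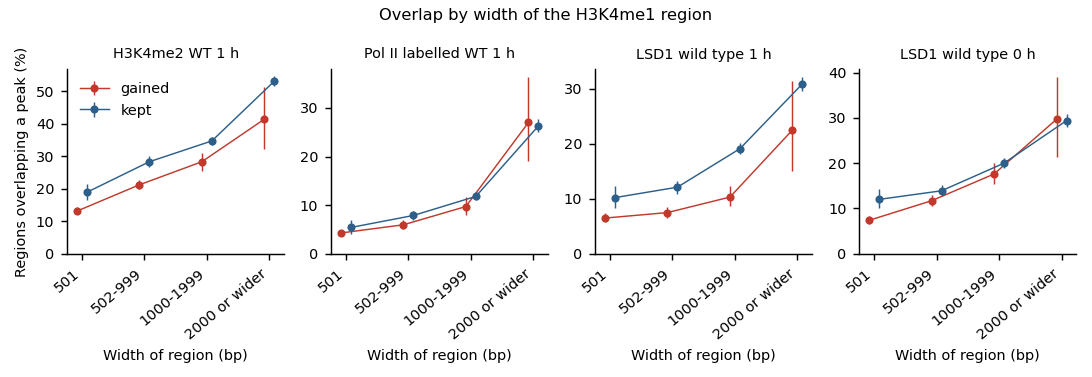
Share of gained (red) and kept (blue) regions overlapping a peak, in percent, in 4 bands of region width in bp, for H3K4me2 and Pol II at 1 h and LSD1 at 1 h and 0 h, with exact 95% binomial intervals. Shares climb with width in both classes, and for LSD1 at 1 h the gained regions stay below the kept ones in each band, with 6.48% against 10.2% at 501 bp.

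Pol II overlapped slightly more gained regions at 1 h than at 0 h. In the lists labelled KO, 172 gained regions had Pol II at 1 h only, 77 at 0 h only and 388 at both times, a difference of 1.21 percentage points (0.819 to 1.57). In the lists labelled WT, 144 had it at 1 h only, 92 at 0 h only and 328 at both, a difference of 0.662 points (0.269 to 1.04). Kept regions had larger differences, of 4.24 points (3.79 to 4.67) in the lists labelled KO and 4.38 (3.93 to 4.81) in those labelled WT. The 1 h lists are longer than the 0 h lists, by 1.14 times in KO and 1.09 times in WT. For lists of equal length, the longer one was cut to its first sites in deposited order. The differences in gained regions were then 0.318 points (-0.0479 to 0.675) and 0.127 points (-0.253 to 0.504), and both intervals include 0.

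The deposited names of the 4 Pol II lists carry the opposite genotype to their labels, so a count that treats both genotypes alike was added. Both 1 h lists and neither 0 h list had Pol II at 42 gained regions, while both 0 h lists and neither 1 h list had it at 9. These are 0.534% and 0.115% of the gained regions, against 1.04% and 0.177% of the whole WT 1 h list, and 285 and 42 of the kept regions. The 1 h direction took 82.4% (69.1 to 91.6) of such gained regions, 87.2% (83.0 to 90.6) of such kept regions and 85.5% of such regions in the whole list. All 4 lists had Pol II at 283 gained regions, and at least 1 list at 736 (9.36%). A gain of H3K4me1 thus went with a called gain of Pol II in both lists at 42 of 7860 places, a smaller share than in the whole list.

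The widest of these 42 regions was chr3:108245239-108247949 (2711 bp), where the KO 1 h list covered 63.2% and the nearest 0 h H3K4me1 lay 7941 bp away. It overlapped H3K4me2 at 1 h and 0 h, wild type LSD1 at 1 h and Flag-LSD1c at 1 h. The region chr17:35182533-35185171 (2639 bp) overlapped H3K4me2 at both times and no LSD1 list. The region chr15:78812738-78814876 (2139 bp) overlapped no H3K4me2, while LSD1 was called there in wild type at 0 h and in LSD1n KO neurons.

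H3K4me2 did not come with the gain of H3K4me1 in most places. At 1107 gained regions it was called at both times, at 372 at 1 h only and at 629 at 0 h only, so fewer gained regions carried it at 1 h than at 0 h, by -3.27 points (-4.03 to -2.49). Kept regions differed in the same direction, by -5.72 points (-6.45 to -4.98). The count at 1 h was 0.852 times that at 0 h in gained regions and 0.870 times in kept regions, where the 1 h list as a whole is 0.919 times as long and has 6990017 tags against 9418008. Of the 2108 gained regions with H3K4me2 at either time, 1736 thus had it at 0 h, when no H3K4me1 was called there. The widest with H3K4me2 at 1 h only was chr13:12551600-12554182 (2583 bp), 62365 bp from any 0 h H3K4me1, with Pol II in all 4 lists, all LSD1 antibody lists and Flag-LSD1c at 1 h. The next outside chromosome 18 were chr9:74708767-74710931 (2165 bp) and chr3:55200742-55202898 (2157 bp).

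**Figure D3:**
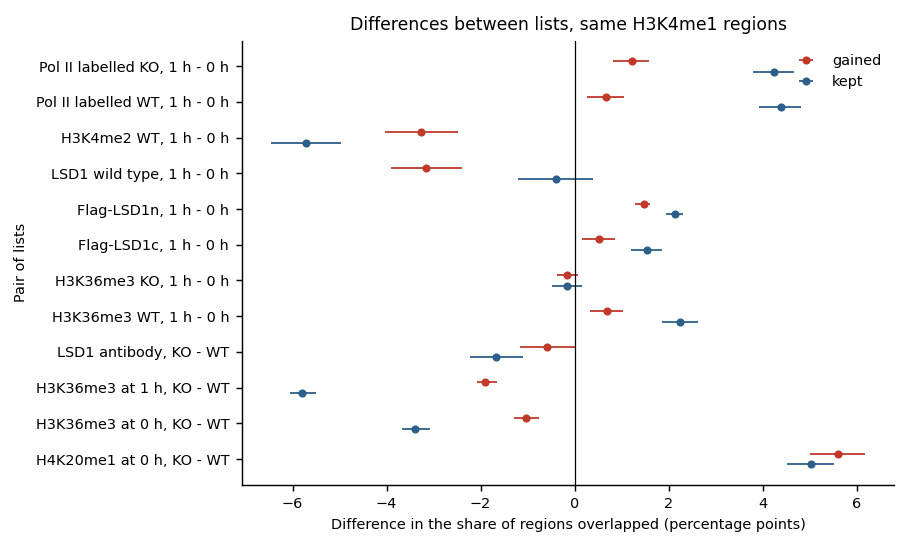
Differences in the share of regions overlapped between pairs of lists, in percentage points, for gained (red) and kept (blue) H3K4me1 regions, with 95% intervals from the regions that overlap 1 list of the pair alone. For LSD1 in wild type, gained regions stand at -3.17 and kept regions at -0.405, and for H3K36me3 the KO and WT differences over time lie on opposite sides of 0 in gained regions.

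LSD1 in wild type neurons overlapped fewer gained regions at 1 h than at 0 h. There were 351 gained regions with a site at 1 h only, 600 at 0 h only and 249 at both times, a difference of -3.17 points (-3.91 to -2.40). In kept regions the difference was -0.405 points (-1.20 to 0.395). The count at 1 h was 0.707 times that at 0 h in gained regions, 0.981 times in kept regions and 0.839 times in the whole WT 1 h list, where the LSD1 list itself was 0.814 times as long. It was 0.670 times in regions found in the WT 1 h list alone, a difference of -1.94 points (-2.44 to -1.42). The lower count at 1 h was thus not particular to regions gained in both genotypes. With equal list lengths the difference in gained regions was -1.55 points (-2.29 to -0.804). The share in gained regions was lower at 1 h than at 0 h in each of the 4 bands of width, but the gap was not wider than in kept regions in all of them. At 501 bp, the width of 45.6% of gained regions, the shares were 6.48% at 1 h and 7.37% at 0 h in gained regions and 10.2% and 12% in kept regions, a smaller gap in gained than in kept regions. At 502 to 999 bp they were 7.48% and 11.7% in gained regions and 12.1% and 13.9% in kept regions. At 1000 to 1999 bp they were 10.3% and 17.6% in gained regions and 19.1% and 20% in kept regions. At 2000 bp or more they were 22.5% and 29.7% in gained regions, and 30.9% and 29.4% in kept regions, where the 1 h share was the higher one.

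Sites of LSD1 at 1 h only were found at wide gained regions with quite different surroundings. The region chr12:96972943-96977159 (4217 bp), which was the widest of them, had H4K20me1 in 3 lists and no H3K4me2 or Pol II. The region chr16:32001814-32004546 (2733 bp) overlapped 14 of the 23 lists, with Pol II at both times, H3K4me2 at both times and Flag-LSD1n at 1 h. The region chr4:133441230-133443954 (2725 bp) lay wholly inside a KO 1 h region, 218 bp from 0 h H3K4me1, with Pol II in all 4 lists.

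In LSD1n KO neurons the LSD1 antibody met slightly fewer gained regions than in LSD1n WT neurons, with 237 regions in the KO list only, 283 in the WT list only and 305 in both. The difference was -0.585 points (-1.16 to -0.00416), against -1.67 points (-2.23 to -1.10) in kept regions. The KO label gives no KCl time and the lists differ in title prefix and depth, with 31532169 tags in KO and 17993780 in WT, so genotype, time and library cannot be told apart.

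Flag-LSD1n overlapped more gained regions at 1 h than at 0 h, with 126 at 1 h only, 10 at 0 h only and 11 at both times, a difference of 1.48 points (1.28 to 1.61). The Flag-LSD1n list was 4.72 times as long at 1 h, and with lists of equal length the difference was 0.0127 points (-0.134 to 0.157). Flag-LSD1c overlapped 118 gained regions at 1 h only, 77 at 0 h only and 56 at both, a difference of 0.522 points (0.163 to 0.864). With lists of equal length the difference for Flag-LSD1c was -0.229 points (-0.554 to 0.105), in the opposite direction. At 1 h, 80 gained regions overlapped Flag-LSD1n only, 117 Flag-LSD1c only and 57 both. Neither tagged form therefore gave a difference over time that outlasted equal list lengths, where the first sites in deposited order were kept.

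Almost all gained regions with a Flag site at 1 h were regions where H3K4me2 was also called, and kept regions had the same pattern. Among kept regions, H3K4me2 was called at 402 of the 413 with Flag-LSD1n at 1 h and 550 of the 571 with Flag-LSD1c. Kept regions without H3K4me2 had these sites at 0.164% and 0.313%. The 2108 gained regions with H3K4me2 held 132 of the 137 regions with Flag-LSD1n at 1 h and 165 of the 174 with Flag-LSD1c at 1 h. As shares these were 6.26% (5.27 to 7.38) of gained regions with H3K4me2 and 0.0869% (0.0282 to 0.203) of the 5752 without it for Flag-LSD1n, and 7.83% and 0.156% for Flag-LSD1c. Pol II labelled KO at 1 h met 22.2% (20.4 to 24.0) with H3K4me2 and 1.62% (1.31 to 1.98) without it, and Pol II labelled WT 19.3% and 1.15%. LSD1 in wild type at 0 h met 26.5% with and 5.04% without H3K4me2, and at 1 h 16.2% and 4.49%. H4K20me1 in KO at 0 h differed little by this split, with 27.5% and 22.4%. The regions with H3K4me2 were wider, with a median of 673 bp against 501 bp.

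For Flag at 1 h, wild type LSD1 and Pol II, gained and kept regions were closer to each other once both had H3K4me2, and for the gene body marks they were further apart. Flag-LSD1n at 1 h met 6.26% of such gained and 5.65% of such kept regions, and Flag-LSD1c at 1 h met 7.83% and 7.72%. LSD1 in wild type at 0 h met 26.5% (24.6 to 28.5) and 28.5% (27.4 to 29.5). At 1 h, LSD1 met 16.2% (14.7 to 17.9) of such gained and 26.7% (25.7 to 27.8) of such kept regions, so here the classes differed at 1 h more than at 0 h. Pol II labelled KO at 1 h met 22.2% and 26.9%. H4K20me1 in KO at 0 h met 27.5% of such gained and 39.8% of such kept regions, against 23.8% and 33.5% of all gained and all kept regions. H3K36me3 in WT at 1 h met 2.51% and 12.7%, against 2.44% and 9.01% of all gained and all kept regions. Width was not matched in this split, as the median was 673 bp in such gained and 1751 bp in such kept regions.

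Pol II covered the centres of gained regions less often than points 1 kb away. Within 1 kb of a gained region, overlaps included, Pol II labelled KO was found at 24.2% (23.3 to 25.2) at 1 h and 21.9% (21 to 22.9) at 0 h, against overlaps of 7.12% and 5.92%. In kept regions it was found within 1 kb at 31.7% and 26.9%. The wider span cannot give a smaller share than the region itself, so this rise does not place Pol II beside the regions. Wild type LSD1 at 1 h rose likewise in gained regions, from 7.63% to 21.8%. At the very centre of gained regions Pol II labelled KO covered 1.55% at 1 h and 1.11% at 0 h, and 1 kb from the centre, as the mean of both sides, 1.88% and 1.79%. In kept regions at 1 h the centre had more than the flank, with 2.65% at the centre and 1.77% at 1 kb. The lists labelled WT gave 1.25% at the centre and 1.81% at 1 kb in gained regions at 1 h, and 2.72% and 1.79% in kept regions. At 0 h kept regions also had no more Pol II at the centre than at 1 kb. The shares there were 1.31% and 1.67% in the list labelled WT, and 1.63% and 1.64% in the one labelled KO. A lower centre was thus not particular to gained regions. Per the headers the caller shifted H3K4me1 regions to the most likely nucleosome-free stretch of the 1 h library itself, which sets where a centre lies.

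LSD1 sites showed a narrow peak at the centre at 1 h. In gained regions wild type LSD1 covered the centre at 2.52% at 1 h and 2.05% at 0 h, although fewer gained regions held a site at 1 h over their whole width. At 1 kb from the centre LSD1 covered 1.42% at 1 h and 1.78% at 0 h. Kept regions had 5.50% at 1 h and 2.88% at 0 h at the centre, and 1.53% and 1.88% at 1 kb. H3K4me2 was highest at the centre of gained regions at both times, with 11.3% at 1 h and 14.0% at 0 h, and 8.19% and 11.7% at 1 kb. Flag-LSD1n at 1 h, like Pol II, covered less of the centre (0.331%) than of the flank at 1 kb (0.833%). Kept regions had the same order for Flag-LSD1n at 1 h, with 0.246% and 0.611%. The H3K4me1 of the KO 1 h list covered 68.5% of the gained centres and 20.5% at 1 kb.

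**Figure D4:**
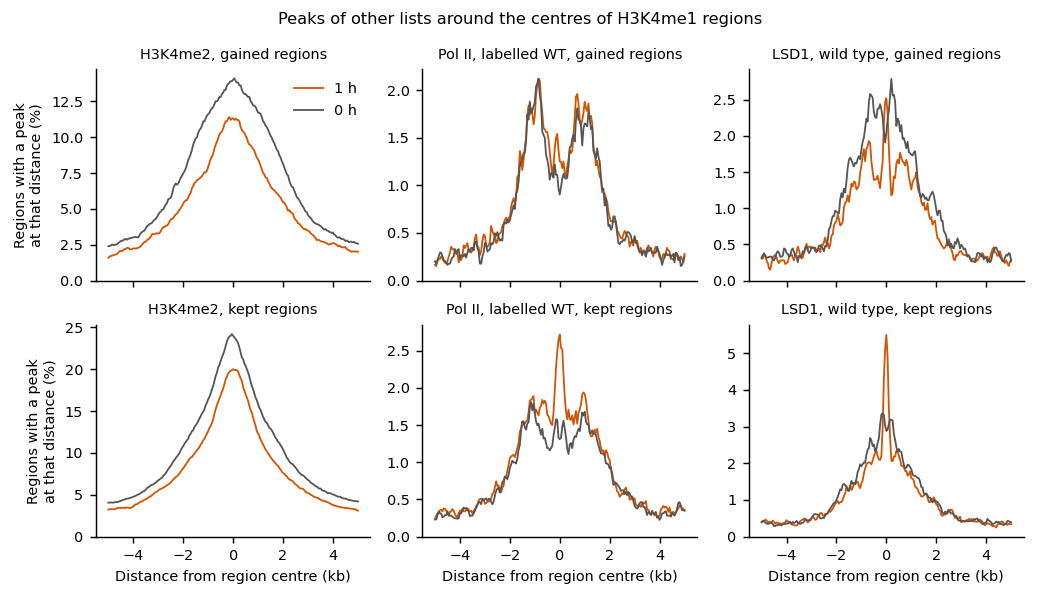
Share of gained regions (top) and kept regions (bottom) with a peak of H3K4me2, Pol II labelled WT or wild type LSD1 at each distance from the region's centre, in percent, at 1 h (orange) and 0 h (grey), from -5 kb to 5 kb in steps of 50 bp. Around gained regions Pol II has a dip at the centre, with 1.25% against 1.81% at 1 kb at 1 h, and LSD1 at 1 h has a narrow peak of 2.52%. Around kept regions at 0 h Pol II is also lower at the centre, with 1.31% against 1.67% at 1 kb.

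H4K20me1 lay over gained regions more often in KO than in WT neurons at 0 h. There were 605 gained regions with the mark in KO only, 164 in WT only and 1266 in both, a difference of 5.61 points (5.01 to 6.17). The difference was 5.02 points (4.52 to 5.51) in kept regions and 5.39 (5.13 to 5.63) in the whole WT 1 h list, and with lists of equal length it was 3.65 points (3.03 to 4.24) in gained regions. The count of gained regions in KO was 1.31 times that in WT, and the KO list as a whole was 1.43 times as long. At 1 h the KO share of 6.26% lay between those of the 2 WT lists, 16.9% and 1.67%, which average 9.30% ± 10.8 (SD, n = 2). The KO list and the second WT list share a title prefix that the other WT list and the 0 h lists do not have, so the differences of -17.5 points in KO and of -1.26 and -16.5 points in WT between 1 h and 0 h cannot be told apart from the library.

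The share with H4K20me1 varied with the distance from H3K4me1 present at 0 h. In KO at 0 h it met 27.8% of gained regions within 1 kb of a 0 h region, 30.3% at 1 to 5 kb, 20.4% at 5 to 20 kb, 13.8% at 20 to 50 kb and 9.19% at 50 kb or more. In WT at 0 h the shares in the same bands were 21.8%, 23.1%, 14.9%, 10.5% and 6.54%. H3K4me2 at 1 h met 21.6%, 20.7%, 12.7%, 18.2% and 19.4%, and LSD1 in wild type at 0 h met 11.5%, 8.33%, 10.6%, 12.5% and 15.2%. The 566 gained regions at 50 kb or more thus had less H4K20me1 than those within 1 kb, and H3K4me2 at a like level. Their LSD1 share was the highest of the bands, at 15.2% (12.3 to 18.4) against 11.5% (10.3 to 12.8) within 1 kb, with intervals that overlap.

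**Figure D5:**
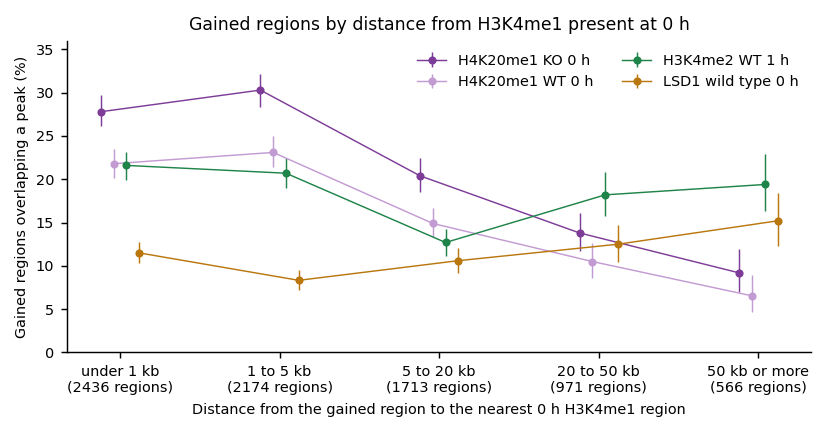
Share of gained regions overlapping H4K20me1 at 0 h in KO and WT, H3K4me2 in WT at 1 h and wild type LSD1 at 0 h, in percent with exact 95% binomial intervals, by distance to the nearest H3K4me1 region of 0 h. H4K20me1 in KO stands at 27.8% within 1 kb and at 9.19% at 50 kb or more, while H3K4me2 stands at 21.6% and 19.4%.

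H3K36me3 overlapped few gained regions and fewer in KO than in WT. At 1 h, 17 gained regions had it in KO only, 166 in WT only and 26 in both, a difference of -1.90 points (-2.07 to -1.66). At 0 h the numbers were 36, 118 and 20, a difference of -1.04 points (-1.30 to -0.750). Kept regions differed by -5.80 points at 1 h and -3.39 points at 0 h. The KO lists were 0.181 and 0.320 times as long as the WT lists at 1 h and 0 h, and with lists of equal length the difference at 1 h was -0.344 points (-0.551 to -0.110). Between 1 h and 0 h the difference in gained regions was -0.165 points (-0.383 to 0.0658) in KO and 0.687 points (0.334 to 1.02) in WT.

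The widest gained regions were chr5:143570720-143574968 (4249 bp), chr12:96972943-96977159 (4217 bp) and chr2:69661765-69665441 (3677 bp). The first lay 2046 bp from 0 h H3K4me1, and its KO partner of 11709 bp reached a 0 h region. It overlapped H3K4me2 at both times, H4K20me1 in all 5 lists and H3K36me3 in KO at 0 h and in WT at both times, with no Pol II or LSD1 site. The third was touched by 1 other list, H4K20me1 in KO at 0 h, and the KO 1 h list covered 59.0% of it.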

How the data were processed

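Of the 41 samples, the 27 with a list of peaks were used, in 26 groups taken from the labels, while 14 samples were not used here. Bowtie, HOMER and the build mm9 appear in the submitters' processing notes, with tool versions not given in the sources used here. The authors built the histone regions from 500 bp peaks joined at a minimum distance of 1250 bp, per the file headers. For Pol II, LSD1 and Flag they called 200 bp sites at least 500 bp apart, each with 4-fold more tags than the local 10 kb. The false discovery rate was 0.001 throughout, with 150 bp fragments, at most 1 tag kept at a position and no control library named. Such lists hold no tag counts per region, so a region just under the threshold is not in a list at all. The deposited score is 1 in every entry and was not used. For equal list lengths, the longer list was cut to its widest regions for histone marks. For Pol II, LSD1 and Flag it was cut to its first sites in deposited order, and whether that order ranks the sites was not tested. Total tags ranged from 6990017 to 34859557 per library.

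Overlaps of at least 1 bp on chromosomes 1 to 19 were counted in numpy 2.4.6 under Python 3.11.15, with intervals from scipy 1.17.1 and plots from matplotlib 3.10.9. Shares have exact Clopper-Pearson intervals at 95%. Differences between lists over the same regions have intervals from the exact binomial interval of the regions in 1 list alone. For differences between gained and kept regions, the Clopper-Pearson limits of the 2 shares were combined by Newcombe's formula. The overlap functions were tested on simulated lists. The members, classes and comparisons were chosen with earlier results of these data known. Positions named are the 3 widest regions of each class described, the 3 nearest to each side of the rule's edge, and 2 clusters. Regions on chromosome 18 were counted and not named. No genome or annotation of mm9 was used here, so no genes, sequences or motifs are given. Pol II groups follow the labels.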

Additional observations from a re-analysis of the deposited data

Results flagged for a closer look

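In gained regions the difference in H3K36me3 between 1 h and 0 h was -0.165 percentage points in KO and 0.687 points in WT, opposite directions under the same contrast. The difference between the genotypes was not tested, as each group has 1 list, and the interval in KO includes 0. The WT list was 1.51 times as long at 1 h as at 0 h and the KO list 0.859 times, and the part of list length in the result was not tested. No group has the 4 lists that a check for outlying samples needs.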

How the results depend on the processing

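The 11 results were recomputed under 145 alternatives in all. The value stayed within the interval of the reported one, or the number of gained regions within 1.5 times of it, in 81, lay outside in 64 and had the opposite direction in 1. The cause was not tested except where the alternative itself removes regions. Differences are in percentage points. Where 0 h regions had to be over 5 kb away, there were 3250 gained regions, and the differences were 1.82 for Pol II labelled KO, -2.18 for H3K4me2 over time, -4.71 for LSD1, 1.11 for Flag-LSD1n, 4.31 for H4K20me1, -1.02 for H3K36me3 and -22.7 for H3K4me2 in gained minus kept regions. At over 1 kb, Flag-LSD1n had 1.07, H3K36me3 -1.53, and gained minus kept regions -20.6 for H3K4me2 and -10.2 for Pol II. Among regions wider than the median (3897), the values were 1.77 for Pol II labelled KO, -4.18 for H3K4me2, -5.21 for LSD1, 1.77 for Flag-LSD1n, -2.49 for H3K36me3, and -23.7 for H3K4me2 and -15.1 for Pol II in gained minus kept regions. With the 1 h lists as long as their 0 h lists (3578 regions), LSD1 had -4.25, H4K20me1 6.60, H3K36me3 -2.38, and gained minus kept -16.9 for H3K4me2. With H3K4me1 regions within 5 kb merged (4915 regions), the values were 1.89 for Pol II labelled KO, -2.03 for H3K4me2, -3.95 for LSD1, 2.99 for Flag-LSD1n, 0.997 for Flag-LSD1c, 4.96 for H4K20me1, -1.18 for H3K36me3, and -26.9 for H3K4me2 and -24.6 for Pol II in gained minus kept regions. Taking the Pol II genotype from the deposited names exchanged 1.21 and 0.662 between KO and WT. With equal list lengths, Flag-LSD1c turned to -0.229, and the others were 0.318 for Pol II labelled KO, 0.127 for Pol II labelled WT, -2.37 for H3K4me2, -1.55 for LSD1, 0.0127 for Flag-LSD1n, 3.65 for H4K20me1 and -0.344 for H3K36me3. Among regions of 502 to 999 bp, chosen after the data were seen, Pol II labelled WT had 0.195, H3K4me2 -4.52, LSD1 -4.23, Flag-LSD1n 1.85, and gained minus kept -7.06 for H3K4me2 and -1.91 for Pol II. With 50% of the region or of the peak covered, H3K4me2 had -2.38, LSD1 -2.20, Flag-LSD1n 1.18, H3K36me3 -1.25, and gained minus kept -17.5 for H3K4me2. With 50% of the region covered, rule included, H3K36me3 had -1.12 and gained minus kept -1.43 for H3K4me2, and 200 bp sites gave no value. In windows of 1 kb, Flag-LSD1n had 2.09, Flag-LSD1c 0.865, and gained minus kept -12.3 for H3K4me2 and -3.33 for Pol II. H3K36me3 had -1.56 under the mirrored rule and -1.50 among regions apart in both 1 h lists, a class also chosen after the data were seen. For H4K20me1 at 1 h, KO minus the mean of both WT lists was -3.04, and leaving out either WT list gave -10.7 and 4.59. No paired analysis was possible because the compared groups have 1 list each, without shared replicate numbers.

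Depth limits all of this: a region can be missing from a list for want of tags, and with 1 list per group neither culture nor library error was measured. The LSD1 list of KO neurons has no labelled KCl time, and the genotype of the Pol II lists is uncertain.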
